A study of Mus musculus with 4 samples.

Results

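Cells rich in Ly6a RNA and cells without it were compared inside 1 single-cell RNA-seq library, that of C3H10T1/2 mesenchymal progenitor cells (MPC) expressing wild-type histone H3 (H3WT) and given the vehicle DMSO. A barcode was kept as a cell when it held at least 5000 UMIs (unique molecular identifiers, each counting 1 captured RNA molecule), at least 1500 detected genes and at most 20% mitochondrial UMIs. Kept cells with 20 or more UMIs of Ly6a were called Ly6a-high, and those with 0 were called Ly6a-negative. Of 3710 kept cells, 810 (21.8%) were Ly6a-high, 1026 (27.7%) were Ly6a-negative and 1874 (50.5%) lay in between. The whole series has 22049 kept cells. Because the groups were chosen by the Ly6a counts of these same cells, the differences within this library are a description, and the other libraries are the only independent data.

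C3H10T1/2 is an established mouse line that forms fat and muscle cells after a short exposure to 5-azacytidine (5-Aza), an inhibitor of DNA methylation. The study asked how H3R26C, in which arginine 26 of histone H3 is a cysteine, affects that differentiation. All cells carried a lentiviral H3.1 transgene from human H3C2, wild type or R26C, selected with puromycin and added to the histone genes of the cells. There were 4 libraries, 1 for each of H3WT DMSO, H3WT 5-Aza, H3R26C DMSO and H3R26C 5-Aza, whose kept cells held 86871326, 84345500, 84060490 and 110712425 UMIs. The 5-Aza cells received 3 µM for 24 h and were collected on day 28, and a separate collection day for the DMSO cells is not stated in the sources used here. As each condition has 1 library, no p-value was computed over cells, and every interval below covers counting error only, not the spread between cultures.

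Ly6a encodes Sca-1, a small GPI-anchored surface protein of the Ly6 family that is used in mice to sort blood stem cells and mesenchymal progenitors. In connective tissue it is high in fibroblasts of the adventitia and fascia, which also express Pi16, Sema3c, Clec3b and Cd248 and act as progenitors of fat and other stroma. Its gene sits in a cluster of Ly6 genes and responds to interferon in several cell types.

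Ly6a was spread over a wide range in these cells, with no gap between the groups. The quartiles were 0, 3 and 17 UMIs per cell, and the highest cell had 231. The threshold on the high side cut through a continuum, with 38 cells at 19 UMIs just outside it and 34 cells at 20 just inside. On the low side, 404 cells had 1 UMI. A count of 0 in the median Ly6a-negative cell allows up to 151 CPM (a gene's UMIs scaled to a fixed total of UMIs), taking 3 counts as the limit, so Ly6a-negative means not detected at this depth. After every cell was thinned to 5000 UMIs, the variance of Ly6a was 6.99 times its mean, which ranked 8 of 404 genes of like level, whose median was 1.29.

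**Figure D1:**
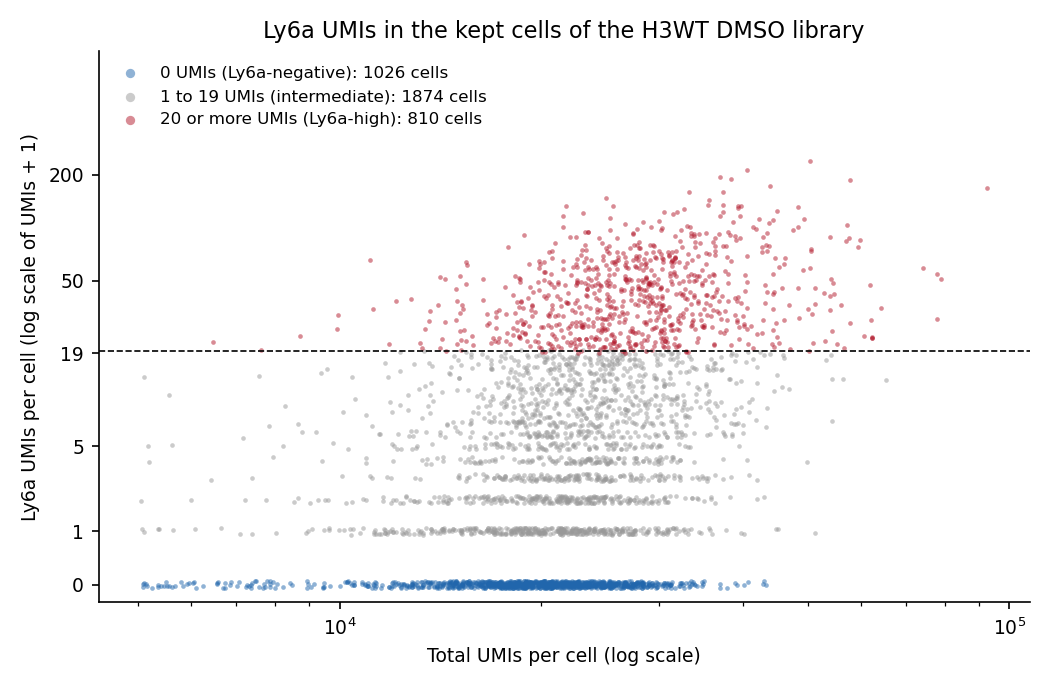
Ly6a UMIs (vertical axis, log scale of UMIs + 1) against total UMIs (horizontal axis, log scale) in the 3710 kept cells of the H3WT DMSO library, 1 point per cell, with a small random vertical shift. The dashed line is the threshold of 20 UMIs, above which lie 810 cells, and the cells at 0 reach less far to the right than the cells above the line.

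Of 20 mesenchymal surface markers listed, 12 reached 20 CPM in both groups, and Nt5e had no UMI in either. The markers of muscle, endothelium and blood were scarce. Pdgfra, a receptor of stromal cells, was 104 CPM in Ly6a-high and 127 CPM in Ly6a-negative cells after depth matching (below). Of 13 skeletal muscle markers, 9 were at 0 in both groups, Myog and Myod1 among them, and the list summed to 22.4 and 22.3 CPM, nearly all of it Tnni1 (20.1 and 21.5 CPM). The 5 endothelial markers summed to 0.252 and 0.172 CPM, with Pecam1 the most abundant and Emcn and Tie1 at 0. The 5 blood cell markers summed to 4.63 and 8.61 CPM, with Cd68 the most abundant (2.69 and 7.66 CPM) and Ptprc, Hba-a1 and Cd3e at 0. Cd34 and Hmga2, which the study uses as stem cell markers, were near 0, with 9 and 0 UMIs of Cd34 in all and Hmga2 at 2.19 and 1.12 CPM.

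RNA of adipocyte, cartilage and bone markers was present. The 5 chondrocyte markers summed to 407 CPM in Ly6a-high and 438 CPM in Ly6a-negative cells, mostly Sox9, and the 5 osteoblast markers to 43.0 and 52.9 CPM, nearly all Runx2. The 13 adipocyte markers summed to 164 CPM in Ly6a-high and 307 CPM in Ly6a-negative cells, with Plin4 the most abundant (94.8 and 142 CPM) and Lep and Pck1 at 0. Adipoq, the gene of the fat hormone adiponectin, had 5 UMIs in Ly6a-high and 362 UMIs in Ly6a-negative cells. Cells with UMIs of 6 or more of the 13 markers numbered 9 of 492 Ly6a-negative cells (1.83%) and 0 of 492 Ly6a-high cells. With these cells left out, 320 genes were higher and 269 lower by 1.5-fold, against 330 and 262 with them.

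Ly6a-high cells were deeper. The median was 27894.5 UMIs per Ly6a-high cell and 19905 per Ly6a-negative cell. In bins of 0.1 log10 UMIs the same number of cells was therefore drawn from each group. This gave 492 cells on each side, with medians of 24050.5 and 23519 UMIs and 5305.5 and 5122.5 genes, and 11910280 and 11613878 UMIs in all. In the matched Ly6a-high cells Ly6a had a median of 37 UMIs and ran from 20 to 189. The median mitochondrial share was 3.48% in Ly6a-high and 4.30% in Ly6a-negative cells, and 91.3% and 97.8% of the cells were called G1. Between 24 and 41 kept barcodes were shared with each of the other libraries, and no doublets were removed.

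The genes next to Ly6a are shown first, because the 2 genes of largest ratio, Ly6c2 and Ly6c1, are its neighbours and paralogs on chromosome 15. In GENCODE M21 (GRCm38), Ly6a lies at chr15:74994877-74998031, Ly6c1 at chr15:75044018-75048830 and Ly6c2 at chr15:75108158-75111970, all on the minus strand. The 250 bases before the most upstream RefSeq start of Ly6c1 (chr15:75048838-75049087) and Ly6c2 (chr15:75111972-75112221), both in GRCm38.p6 and on the minus strand, are given 5′ to 3′, with capitals for the 2 stretches of 12 or more bases, 15 and 20 long, that align without a difference.
Ly6c1: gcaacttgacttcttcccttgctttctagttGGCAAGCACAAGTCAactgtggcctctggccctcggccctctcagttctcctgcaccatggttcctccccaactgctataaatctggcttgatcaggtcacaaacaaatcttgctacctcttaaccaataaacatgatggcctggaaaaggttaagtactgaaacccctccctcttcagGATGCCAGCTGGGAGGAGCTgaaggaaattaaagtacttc
Ly6c2: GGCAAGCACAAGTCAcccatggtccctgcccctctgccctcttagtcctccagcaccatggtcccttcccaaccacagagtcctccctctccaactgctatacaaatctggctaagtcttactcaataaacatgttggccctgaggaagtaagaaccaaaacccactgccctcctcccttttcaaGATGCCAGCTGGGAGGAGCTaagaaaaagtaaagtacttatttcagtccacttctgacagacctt

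Over 284 aligned positions these windows were 57.7% identical. The last 300 bases of the longest coding transcripts, where 3′ reads fall, were 93.5% identical between Ly6c1 and Ly6c2, 80.1% between Ly6a and Ly6c1 and 81.0% between Ly6a and Ly6c2. Reads of Ly6c1 and Ly6c2 may therefore have been split or lost between the copies, and their separate levels are uncertain.

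Of the listed Ly6 family genes 4 besides Ly6a reached 20 CPM, all of them only in the Ly6a-high cells, so their direction was fixed by that minimum. Ly6c1 was at 198 CPM (95% Poisson interval 190 to 207) in Ly6a-high and 2.41 CPM (1.60 to 3.48) in Ly6a-negative cells. Per cell, Ly6c1 ran from 0 over a median of 3 to 52 UMIs in Ly6a-high cells, and from 0 over a median of 0 to 2 UMIs in Ly6a-negative cells, so the ranges overlapped only at low counts. Ly6c2 was at 151 CPM (144 to 158) and 1.55 CPM (0.919 to 2.45). On the scale of log2 of CPM with 1 CPM added, which is used for all ratios below, Ly6c1 and Ly6c2 were higher by 5.87 and 5.90. Ly6e, whose product is a receptor-like Ly6 protein of many tissues, was at 37.9 and 4.22 CPM (log2 ratio 2.90). Lynx1, known as a modulator of nicotinic receptors, was at 26.3 and 12.3 CPM (1.04). Of the 32 family members listed, 14 had no UMI in either group. All 4 lie within 500 kb of Ly6a. At least 1 UMI of Ly6c1 or Ly6c2 was found in 483 of 492 matched Ly6a-high cells and in 36 of 492 Ly6a-negative cells.

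Across the transcriptome, genes differed in both directions. Of 6564 genes with at least 20 CPM in either group, Ly6a left out, 330 (5.03%) were higher and 262 (3.99%) lower in Ly6a-high cells by at least 1.5-fold, and 117 and 105 by at least 2-fold. The median log2 ratio of all 6564 genes was 0.0539, with 60.2% above and 39.8% below 0. These shares are the background against which the gene lists below are read. The next paragraphs give the 14 genes of largest and the 14 of smallest ratio at a level of 50 CPM or more in 1 or both groups.

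**Figure D2:**
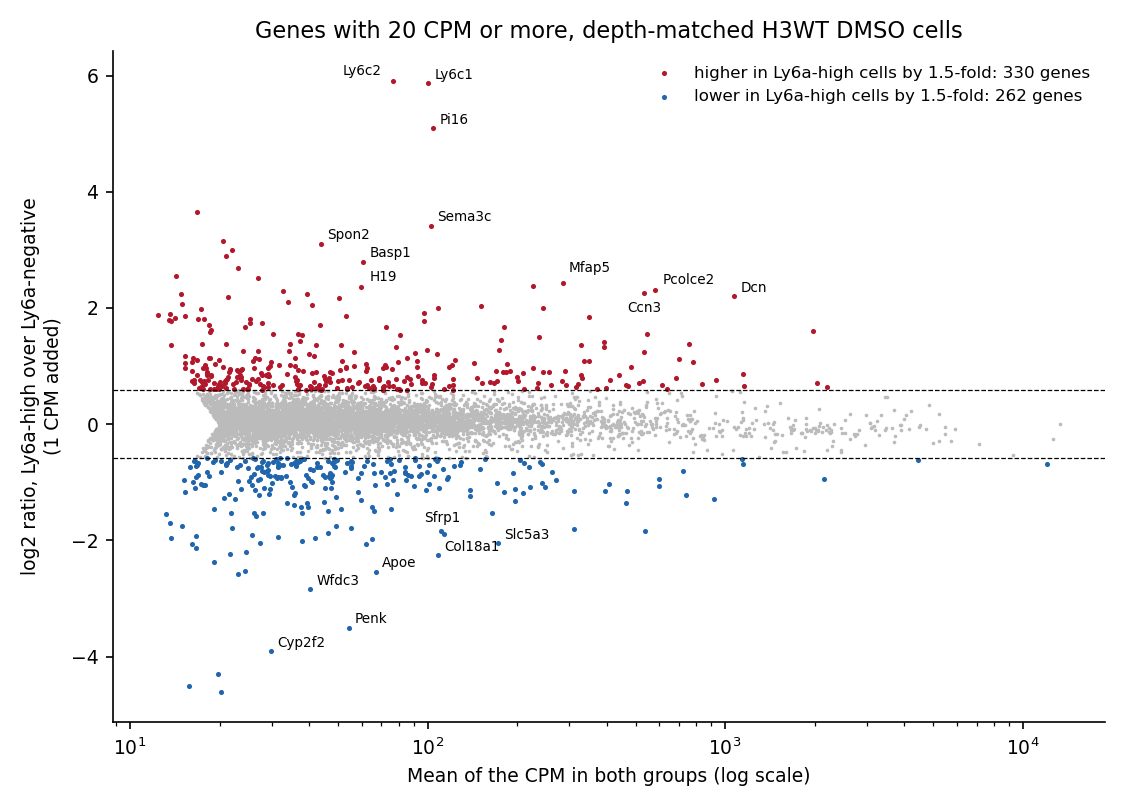
log2 ratio of Ly6a-high to Ly6a-negative cells (vertical axis, 1 CPM added) against the mean CPM of both groups (horizontal axis, log scale) for 6564 genes of the depth-matched H3WT DMSO cells, with dashed lines at 1.5-fold. Ly6c1, Ly6c2 and Pi16 stand above 5, and 330 genes lie above and 262 below the lines.

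Markers of adventitial progenitors were among the genes of largest ratio. Pi16, a secreted protease inhibitor that marks these fibroblasts, was at 204 CPM (196 to 212) in Ly6a-high and 4.99 CPM (3.79 to 6.46) in Ly6a-negative cells, a log2 ratio of 5.09. Per cell, Pi16 ran from 0 over a median of 1 to 99 UMIs in Ly6a-high cells and reached 5 UMIs in Ly6a-negative cells. It was thus high in part of the Ly6a-high cells, with a UMI in 56.9% of them and in 8.54% of the Ly6a-negative cells. Sema3c, a secreted semaphorin, was at 188 CPM (180 to 196) and 16.7 CPM (14.4 to 19.2), a log2 ratio of 3.42. A UMI of Sema3c was found in 391 of 492 Ly6a-high cells, and in 84.3% of those with Pi16 against 73.1% of those without.

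Several other genes of largest ratio encode secreted or matrix proteins, a grouping made after their values were seen. It does not set these genes apart, as Col18a1, Ltbp2 and Sfrp1 were among the genes of smallest ratio. In the fixed collagen and matrix list, 6 of 46 measured genes were higher and 12 lower (below). Spon2 (79.6 and 8.35 CPM, log2 ratio 3.11) encodes a secreted adhesion protein. Mfap5, a microfibril protein, was at 482 CPM (469 to 494) and 88.2 CPM (82.9 to 93.7), with a median of 9 UMIs per Ly6a-high cell and 0 per Ly6a-negative cell. Pcolce2, an enhancer of procollagen processing, was at 966 CPM (949 to 984) and 195 CPM (187 to 203), and the middle 50% of Ly6a-high cells had 13 to 31 UMIs. Dcn, the proteoglycan decorin, was the most abundant of these genes at 1765 CPM (1741 to 1789) and 382 CPM (371 to 393), a log2 ratio of 2.20. Ccn3, a matricellular protein, was at 880 and 184 CPM (2.25), and Colec10, a secreted collectin, at 382 and 72.4 CPM (2.38).

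The remaining genes of this group act inside the cell. Basp1, a membrane-bound signalling protein, was at 107 and 14.6 CPM (log2 ratio 2.80). Ablim1, an actin-binding protein, was at 65.7 and 13.2 CPM (2.23). Msx1, a homeobox factor of limb and craniofacial mesenchyme, was at 54.8 and 10.4 CPM (2.29). H19, an imprinted noncoding RNA, was at 101 and 18.9 CPM (2.36), but 10 of the 492 Ly6a-high cells held 51.5% of its UMIs and only 20.1% had any.

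Among the genes of smallest ratio, Cyp2f2, a cytochrome P450, was at 2.86 CPM (1.98 to 4.0) in Ly6a-high and 56.8 CPM (52.6 to 61.3) in Ly6a-negative cells, a log2 ratio of −3.90. The 10 cells with most Cyp2f2 held 74.8% of its UMIs among the Ly6a-negative cells, of which 14.2% had any. Penk, the precursor of enkephalins, was at 7.99 and 101 CPM (−3.50), and its 10 highest Ly6a-negative cells held 56.3% of its UMIs. These values thus rest on few cells. Wfdc3, a small secreted protein with WAP domains, was at 9.17 and 71.6 CPM (−2.84), with UMIs in 63 and 197 of 492 cells. Apoe, the lipid carrier apolipoprotein E, was at 19.01 and 115 CPM (−2.54).

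The other lower genes ranged from widely detected to patchy in Ly6a-negative cells. Slc5a3, an importer of the osmolyte myo-inositol, was at 66.8 CPM (62.2 to 71.6) and 278 CPM (268 to 288), with medians of 1 and 5 UMIs per cell and UMIs in 56.3% and 85.8% of cells. Col18a1, a basement membrane collagen, was at 36.9 CPM (33.6 to 40.5) and 180 CPM (172 to 188), a log2 ratio of −2.26. Col11a1, a minor fibrillar collagen, was at 19.3 and 73.3 CPM (−1.87), and Ltbp2, a microfibril-associated protein, at 25.7 and 104 CPM (−1.97). Sfrp1, a secreted Wnt antagonist, was at 47.9 CPM (44.1 to 52.0) and 174 CPM (166 to 181), a log2 ratio of −1.84. Npr3, the clearance receptor of natriuretic peptides, was at 16.6 and 67.4 CPM (−1.96). Car9, a carbonic anhydrase induced by hypoxia, was at 12.4 and 50.5 CPM (−1.94). Enpp2, the lysophospholipase autotaxin, which the study uses as an adipogenic marker, was at 23.5 and 101 CPM (−2.06), with UMIs in 39.2% of Ly6a-negative cells and 42.3% of its UMIs in 10 of them.

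Fosb, a subunit of the AP-1 transcription factor, was at 47.4 CPM (43.6 to 51.5) and 179 CPM (172 to 187), a log2 ratio of −1.90. The 250 bases before its most upstream RefSeq start, chr7:19310046-19310295 on the minus strand of GRCm38.p6, hold 1 match to TGACG, the core of the cyclic AMP response element, in capitals, beginning 60 bases before the start.
Fosb: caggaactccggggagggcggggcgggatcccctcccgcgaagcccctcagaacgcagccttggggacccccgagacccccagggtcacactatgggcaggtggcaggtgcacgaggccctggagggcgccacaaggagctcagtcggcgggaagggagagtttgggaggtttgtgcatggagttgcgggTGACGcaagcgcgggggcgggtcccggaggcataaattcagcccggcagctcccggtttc

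Promoter windows of this length were found for 18 of the 28 named genes and searched on both strands for 7 motifs. Among the 8 genes of larger ratio, TATAAA (in 3507 of all 27025 windows) was in that of Ly6c1, TTCNNNGAA (7.14%) in that of Pcolce2 and TGACG (17.8%) in that of Basp1. Among the 10 genes of smaller ratio, TGACG was in the windows of Fosb and Npr3 and TGANTCA (6.85%) in that of Car9. The interferon-stimulated response element (ISRE, 3.05%), GGAATG (12.6%) and the CArG box (1.41%) were in none of the 18 windows, and no matches overlapped in the sequences printed here. Such matches describe letters and not bound sites.

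Whether these genes followed Ly6a step by step was examined in 6 classes of Ly6a UMIs, with 241 cells of matched depth in each. Pi16 was at 6.20, 12.9, 25.4, 48.6, 117 and 230 CPM in cells with 0, 1 to 4, 5 to 9, 10 to 19, 20 to 39 and 40 or more Ly6a UMIs. Ly6c1 was at 2.61, 13.03, 20.9, 53.1, 114 and 256 CPM in the same order. Slc5a3 was at 247, 180, 121, 114, 87.8 and 51.0 CPM. Pooled levels of these genes in the intermediate classes thus lay between those of the end classes. As the genes were chosen for their ratio between groups of these same cells, this is a description. Pooled levels do not show how single cells were spread. Of the 14 higher genes 12 were higher at each of the 5 steps, with H19 and Dcn lower at 1, and of the 14 lower genes 9 were lower at each step.

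**Figure D3:**
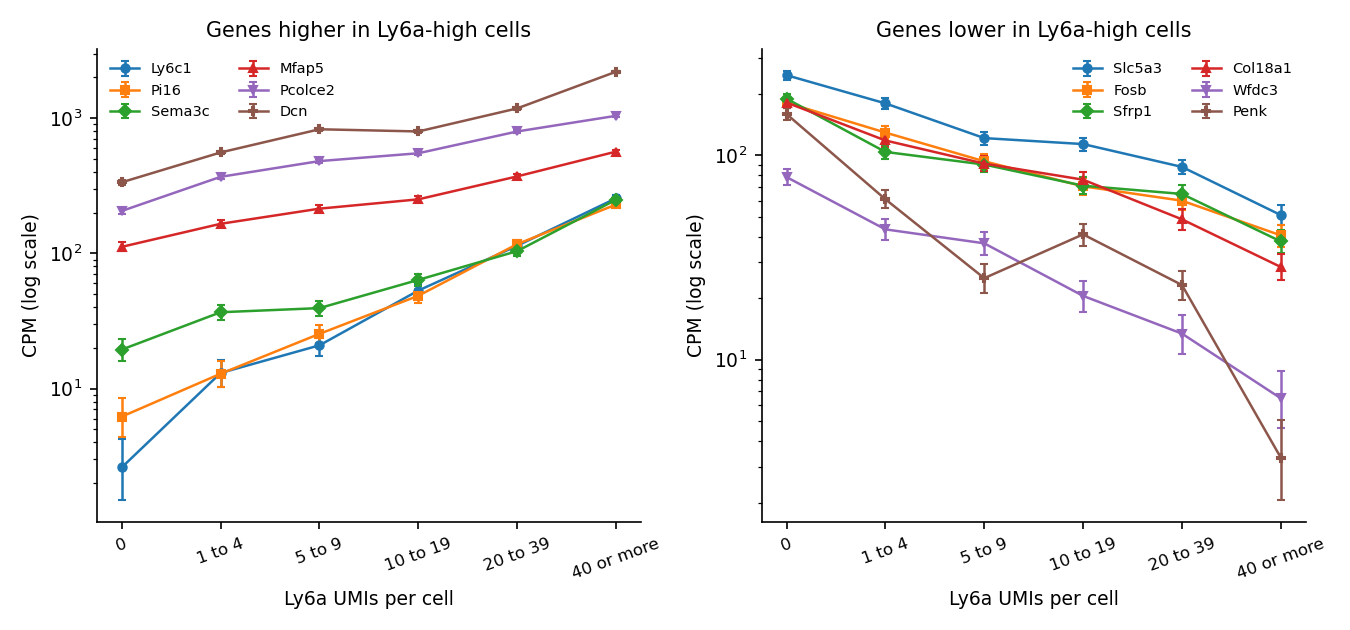
CPM (vertical axes, log scale) of 6 genes higher (left) and 6 genes lower (right) in Ly6a-high cells, in 6 classes of cells by Ly6a UMIs (horizontal axis), 241 depth-matched cells each, H3WT DMSO. Points are pooled values, bars 95% Poisson intervals, and Pi16 runs from 6.20 to 230 CPM from the lowest class to the highest.

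The cells were also near others of like Ly6a level when Ly6a, Ly6c1 and Ly6c2 were left out. Over 10 principal components of 2000 variable genes in cells thinned to 5000 UMIs, 61.4% of the 15 nearest neighbours of Ly6a-high cells were Ly6a-high and 2.19% Ly6a-negative, where these groups make up 21.8% and 27.7% of the library. Of the neighbours of Ly6a-negative cells, 51.8% were Ly6a-negative and 2.06% Ly6a-high. The first component, with 3.32% of the variance, had group medians 1.70 SD apart, with Ccn3 and Anxa2 leading its Ly6a-high end and Fos and Igf1 the other. Since cells of 1 library were used for both steps, these shares are a description.

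Gene lists were then read against the background of 5.03% higher and 3.99% lower. A gene that reached 20 CPM in Ly6a-high cells alone, or in Ly6a-negative cells alone, had its direction fixed by that minimum. In the list of 20 adventitial progenitor genes, 11 reached 20 CPM, 8 of them were higher and 0 lower, and the median log2 ratio was 1.68 against 0.0539 for all genes. Pi16 and Sema3c reached 20 CPM only in Ly6a-high cells. Besides these and Mfap5, the higher genes were Efhd1, Cd248, Anxa3, Clec3b and Ackr3, which are named here after their values were seen. Clec3b, the plasminogen-binding protein tetranectin, was the most abundant, at 2972 and 974 CPM (1.61), and Cd248, the stromal surface protein endosialin, was at 545 and 151 CPM (1.84). Fbn1 (0.56), Col15a1 (−0.05) and Dpt (−0.50) were within the fold, and Dpp4, a defining marker of this population in tissue, had no UMI in either group, nor had Wnt2 and Gpx3. Mesenchymal surface markers in general did not share this pattern. Of 12 that reached 20 CPM, Thy1 was higher (137 and 89.7 CPM), Vcam1 (57.3 and 92.9 CPM) and Ncam1 (48.6 and 76.4 CPM) were lower, and the median was −0.24.

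**Figure D4:**
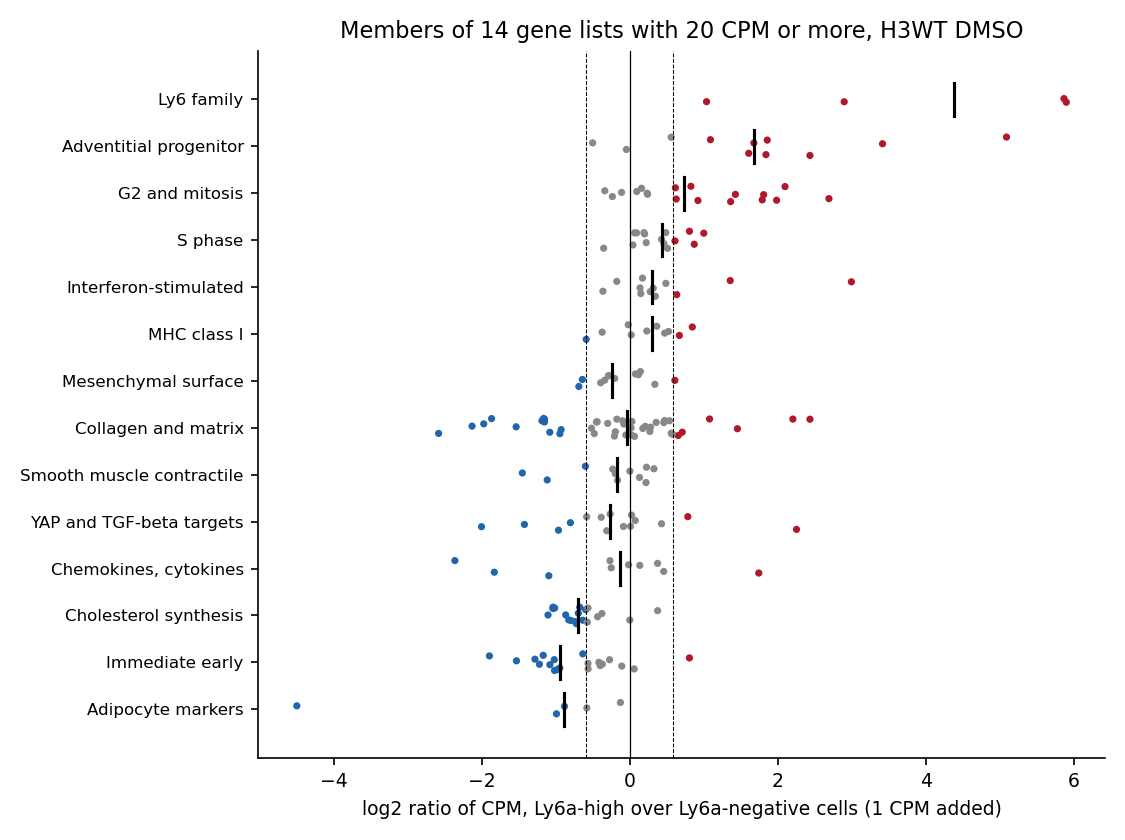
log2 ratio of Ly6a-high to Ly6a-negative cells (horizontal axis, 1 CPM added) for the members of 14 lists with at least 20 CPM, H3WT DMSO, 1 point per gene, with random vertical shifts. Black bars are list medians, dashed lines 1.5-fold, and red and blue points genes past it; the bars of the adventitial and immediate early lists stand at 1.68 and −0.95.

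The matrix genes were mixed. Of 46 measured members of the collagen and matrix list, 6 were higher and 12 lower, and the median was −0.04. The 20 CPM minimum was passed through Ly6a-high cells alone by 1 of the 46 and through Ly6a-negative cells alone by 3. Mfap5, Dcn and Ecm1 (258 and 93.6 CPM) had the largest ratios. Mfap4, a microfibril glycoprotein (5.89 and 40.3 CPM, log2 ratio −2.58), Tnc, the matrix glycoprotein tenascin C (5.55 and 27.7 CPM, −2.13), and Ltbp2 had the smallest. The main fibrillar collagen chains, named after their values were seen, differed little, with Col1a1 at 3109 and 3049 CPM and Col3a1 at 3128 and 3201 CPM. The list as a whole summed to 39500 and 38290 CPM.

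Contractile and TGF-beta related genes were mixed. The smooth muscle list summed to 9312 and 8783 CPM and the YAP and TGF-beta list to 2982 and 2879 CPM in Ly6a-high and Ly6a-negative cells, with 5 of 11 and 6 of 15 genes above 0. Of 11 smooth muscle genes 0 were higher and 3 lower, namely Mylk (39.95 and 111 CPM, log2 ratio −1.45), Acta2 (124 and 269 CPM, −1.12) and Tpm1 (909 and 1377 CPM, −0.60). Of 15 YAP and TGF-beta targets, 2 were higher, Ccn3 and the receptor kinase Axl (111 and 64.0 CPM), and 4 lower, among them Ccn2 (34.8 and 95.1 CPM), Bmp4 (51.5 and 101 CPM) and Ccn1 (528 and 921 CPM). The 20 CPM minimum was passed through Ly6a-negative cells alone by 2 of the 15. Of 10 chemokine and cytokine genes, Ccl2, which attracts monocytes, was higher (43.3 and 12.2 CPM, 1.74). Cxcl12, which retains CXCR4-bearing cells, was lower (236 and 844 CPM, −1.83), as were the complement gene C3 (5.55 and 32.7 CPM, −2.36) and Cx3cl1 (28.5 and 62.0 CPM, −1.09). Ccl2 reached 20 CPM only in Ly6a-high cells and C3 only in Ly6a-negative cells, so both directions were fixed by that minimum. Among 6 Wnt and Notch genes, Sfrp1 and Notch1 (21.2 and 40.1 CPM) were lower and 0 higher.

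Cholesterol synthesis genes were mostly lower in Ly6a-high cells. Of 19 measured, 13 were lower and 0 higher, and the median was −0.70. The 20 CPM minimum was passed through Ly6a-negative cells alone by 1 of the 19. In the other libraries fewer were past the fold, 3 of 19 lower in H3R26C DMSO (median −0.42), 4 of 20 in H3WT 5-Aza (−0.40) and 4 of 17 in H3R26C 5-Aza (−0.32), with 0 higher in each, where 4.55%, 7.15% and 12% of all genes were lower. Hmgcs1, which makes HMG-CoA and is the most abundant of the list, was at 113 and 229 CPM (named after its values were seen). Idi1 (29.6 and 64.8 CPM) and Sqle (43.3 and 89.98 CPM), which act at the isoprenoid and squalene steps, had log2 ratios of −1.10 and −1.04. Ebp (0.38), Pmvk (0.00035) and Mvk (−0.38) were within the fold.

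Immediate early genes, which respond to growth factors and to cell handling, were lower in Ly6a-high cells. Of 21 measured, 12 were lower and 1 higher, and the median was −0.95. The 20 CPM minimum was passed through Ly6a-negative cells alone by 2 of the 21. Besides Fosb, the smallest ratios were those of Egr3 (13.9 and 42.0 CPM) and Fos (536 and 1304 CPM, −1.28). Klf4, a factor of quiescent and stem-like cells, was the 1 higher member, at 255 and 146 CPM (0.81). Mitochondrial and nuclear RNA were also lower in this library. All 13 mitochondrial genes were below 0 (median −0.37), and Malat1, a nuclear-retained RNA, was at 7583 and 10930 CPM. In H3WT 5-Aza and H3R26C 5-Aza the mitochondrial medians were −0.21 and −0.48, where those of the immediate early list were 0.026 and 0.44. In H3WT DMSO cells matched on mitochondrial share as well as depth, the median of the immediate early list was −1.07. Of 7 heat shock genes, Dnajb1 was lower (82.3 and 195 CPM) and 0 were higher. No ribosomal protein gene of 76 was past the fold.

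Cell cycle genes were higher in Ly6a-high cells, of which 5.08% were called S and 3.66% G2M against 1.42% and 0.813% of Ly6a-negative cells. Of 18 G2 and mitosis genes, 11 were higher and 0 lower (median 0.73), led by Birc5 (40.5 and 5.42 CPM, log2 ratio 2.69), Top2a (55.7 and 12.2 CPM, 2.10) and Mki67 (28.2 and 6.37 CPM, 1.98). Of 15 S phase genes, Atad2, Mcm6, Rrm1 and Mcm7 were higher and 0 lower (0.43). In cells called G1 the medians of the adventitial and immediate early lists were 1.68 and −0.94. Those of the G2 and mitosis and S phase lists were 0.0045 and 0.052, which the phase calls fix in part, being made from these same genes. Of the G2 and mitosis genes 8 reached 20 CPM only in Ly6a-high cells, and so did 4 of the S phase genes. In H3R26C 5-Aza 0 were higher and 3 lower of 36 G2 and mitosis genes (median −0.16) and 0 higher and 3 lower of 21 S phase genes (−0.22), near the share of 12% lower among all genes there. Their medians were 0.63 and 0.39 in H3R26C DMSO and 0.26 and 0.25 in H3WT 5-Aza.

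Interferon-stimulated genes, which include regulators and targets of the pathway that induces Ly6a, were past the fold for 3 of 12 measured. Ifi27l2a was at 39.95 and 4.13 CPM (log2 ratio 3.0), Ifitm3, which restricts viral entry, at 473 and 184 CPM (1.36) and Ddx58, the RNA sensor RIG-I, at 39.2 and 24.9 CPM (0.64). None of the 12 was lower by 1.5-fold, the median was 0.30, and Irf1 (32.1 and 36.4 CPM) and Lgals3bp (81.3 and 105 CPM) were below 0. Of 10 MHC class I genes, H2-T23 (35.9 and 19.5 CPM) and H2-K1 (77.2 and 48.1 CPM) were higher and Tapbp (72.1 and 109 CPM) was lower. Ifi27l2a and H2-T23 reached 20 CPM only in Ly6a-high cells, so their direction was fixed by that minimum.

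Free RNA in droplets can place single UMIs in cells that do not express a gene, so shares of cells were also set beside another cell type. After thinning to 5000 UMIs, Pi16 was found in 26.9% of all 810 Ly6a-high cells (95% Clopper-Pearson interval 23.9 to 30.1), in 3.22% of the 1026 Ly6a-negative cells (2.22 to 4.49) and in 8.13% of 246 muscle-marked cells of the H3WT 5-Aza library (5.04 to 12.3). For Ly6c1 these shares were 50.7%, 1.36% and 37 of 246 cells. Before thinning, Pi16 was in 51.5%, 8.19% and 15.4%, with median depths of 27894.5, 19905 and 15693 UMIs. For Penk the thinned shares were 4.44%, 9.36% and 4.88%. Of the 246 muscle-marked cells, which come from another library, 25 were themselves Ly6a-high and only 122 were Ly6a-negative. They are thus no blank for free RNA, which was not measured in the H3WT DMSO library. The Ly6a-negative shares of Pi16 and Ly6c1 lay below those of muscle-marked cells, and no expression is read from them.

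The genes chosen in H3WT DMSO were next looked up in the other libraries, which had no part in their choice. By the same rule there were 1569 Ly6a-high and 1101 Ly6a-negative cells in H3WT 5-Aza, 944 and 1095 in H3R26C DMSO, and 2950 and 440 in H3R26C 5-Aza, from which 821, 561 and 369 of each were matched on depth. With 3 libraries an exact sign-flip test over libraries cannot go below p = 0.25, and none was run.

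In H3R26C DMSO most of these genes differed in the same direction. Of 317 higher genes with 20 CPM there, 316 had the same sign and 237 (74.8%) were past the fold, which is 66.2% of the 358 genes higher in that library. Of 244 lower genes, 243 had the same sign and 186 (76.2%) were past the fold, 61.0% of its 305. The background there was 5.34% higher and 4.55% lower, and 52.7% of all genes were above and 47.3% below 0. All 14 named higher genes and 13 of 14 lower genes were past the fold in the same direction, and Car9 did not reach 20 CPM there (1.13 and 5.21 CPM). Pi16 had a log2 ratio of 5.14, Sema3c of 3.87 and Fosb of −2.63.

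In H3WT 5-Aza, 296 of 317 higher genes had the same sign and 215 (67.8%) were past the fold, 58.0% of that library's 371. Of 235 lower genes, 230 had the same sign and 164 (69.8%) were past the fold, 33.8% of its 485. The background was 5.47% higher and 7.15% lower, and 49.7% of all genes were above and 50.3% below 0. All 14 named lower genes and 12 of 14 higher genes were past the fold in the same direction, the others being H19 (−1.59) and Ablim1 (−0.02, or 1.35 without muscle-marked cells). The immediate early list had a median of 0.026 here, with 2 genes higher and 3 lower of 19. The Ly6a-negative cells of this library held 10.8% muscle-marked cells, which have UMIs of at least 6 of 13 muscle markers, and the Ly6a-high cells 1.83%. Without muscle-marked cells 180 of 314 higher genes (57.3%) and 182 of 239 lower genes (76.2%) were past the fold. The background was then 4.35% higher and 5.76% lower. Of the named genes 13 of 14 higher and all 14 lower were past the fold, with H19 at 0.73. Spon2 was then within the fold, at 0.58 against 0.80.

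In H3R26C 5-Aza fewer genes of either direction were shared. Of 295 higher genes, 227 (76.9%) had the same sign, 133 (45.1%) were past the fold in the same direction, 17.3% of that library's 767, and 23 (7.80%) in the opposite direction. Of 200 lower genes, 108 (54.0%) had the same sign, 45 (22.5%) were past the fold in the same direction, 5.38% of its 836, and 34 (17.0%) in the opposite direction. The background was 11% higher and 12% lower, and 50.1% of all genes were above and 49.9% below 0. With every cell thinned to 5000 UMIs the shares past the fold were 35.8% of higher and 37.9% of lower genes. The background in thinned cells was 10.4% higher and 21.6% lower. Of the 14 named higher genes 12 were past the fold, such as Ly6c1 (4.74) and Pi16 (3.80), and H19 (−2.97) and Ablim1 (−1.89) were past it in the opposite direction. In thinned cells 11 were past the fold and 2 opposite, and without muscle-marked cells (below) 10 and 0, with Basp1 at 0.42 and 0.24 against 0.64 and Ablim1 at −1.82 and −0.37. Of the 14 named lower genes 12 reached 20 CPM, 3 of these had the same sign and Col11a1 (−1.12) was past the fold. Another 5 were past it in the opposite direction. In thinned cells 3 were past the fold in the same direction and 2 in the opposite, and without muscle-marked cells 4 and 2. Enpp2 was the farthest in the opposite direction, higher in the Ly6a-high cells, at 422 and 16.7 CPM (4.58), or 410 and 63.6 CPM (2.67) in thinned cells. Muscle-marked cells were 24.4% of the matched Ly6a-negative cells and 1.08% of the Ly6a-high cells. Without them 143 of 209 lower genes (68.4%) had the same sign, against 59.0% of all genes, and 193 of 293 higher genes (65.9%) did, against 41.0%. The shares past the fold were then 32.4% of higher and 30.6% of lower genes, where 6.25% of all genes were higher and 12.7% lower. In the opposite direction 42 and 19 genes were past it, and Enpp2 was at 507 and 35.2 CPM (3.81).

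**Figure D5:**
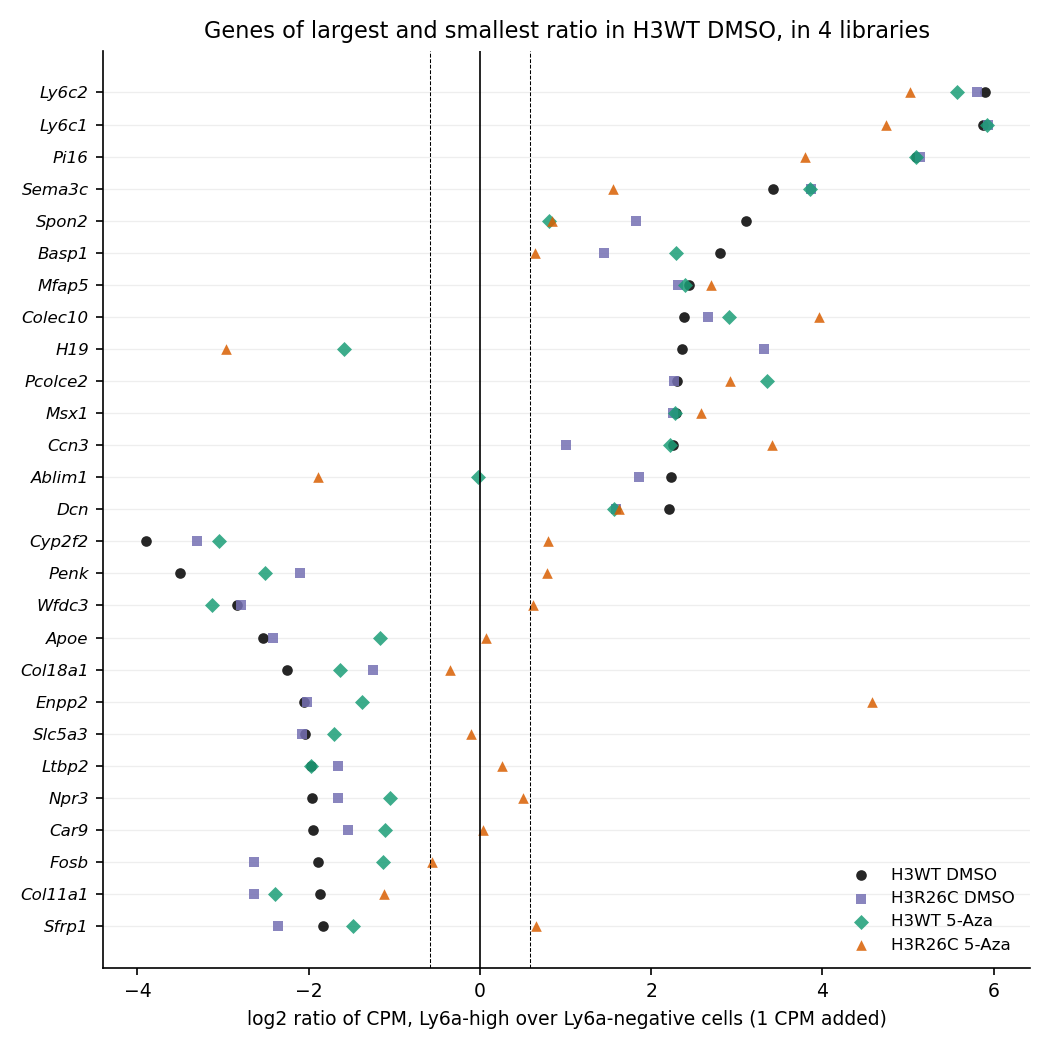
log2 ratio of Ly6a-high to Ly6a-negative cells (horizontal axis, 1 CPM added) of named genes in the 4 libraries, 1 symbol per library, with dashed lines at 1.5-fold. Both DMSO libraries place every gene shown on the same side, H19 lies left of 0 in both 5-Aza libraries, and Enpp2 lies at 4.58 in H3R26C 5-Aza.

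The lists also differed between libraries. The adventitial progenitor list had medians of 1.68, 1.66, 1.77 and 1.47 in H3WT DMSO, H3R26C DMSO, H3WT 5-Aza and H3R26C 5-Aza. Of 11 measured genes in each, 8, 9, 8 and 8 were higher past the fold, and 1 was lower in H3R26C DMSO. The interferon-stimulated list had medians of 0.30, 0.45, 0.76 and 1.57 in that order, with 3 of 12, 6 of 15, 12 of 18 and 26 of 28 measured genes past the fold and 0 lower in each. Among all genes 5.03%, 5.34%, 5.47% and 11% were higher in the same order, and 12% were lower in H3R26C 5-Aza. In H3WT DMSO, 2 of the 12 interferon-stimulated genes reached 20 CPM only in Ly6a-high cells, so their direction was fixed by that minimum. Such genes were not counted in the other libraries, so the list counts there may be fixed in part. The immediate early list had medians of −0.95, −0.92, 0.026 and 0.44, with 8 of 18 genes higher and 3 lower in H3R26C 5-Aza. The MHC class I list had medians of 0.30, 0.10, 0.32 and 1.16. These values include the muscle-marked cells, which were 10.8% and 24.4% of the matched Ly6a-negative cells of H3WT 5-Aza and H3R26C 5-Aza. As each condition has 1 library, differences between libraries cannot be told apart from those between cultures and were not tested.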

How the data were processed

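Single-cell 3′ RNA-seq was made from 4 libraries, 1 per condition, after TrypLE dissociation. The authors deposited raw UMI counts per gene and barcode, made with Cell Ranger (6.1.0 per the file headers; the submitters' processing notes name Cell Ranger 6 and Seurat 4) on mm10. The filter of the study was applied (at least 5000 UMIs, at least 1500 genes, at most 20% mitochondrial UMIs), and doublets were not removed. The members and gene lists were chosen with earlier results of these data known.

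Cells were drawn in equal numbers from bins of 0.1 log10 UMIs with a fixed seed, their counts were summed, and CPM were computed without Ly6a. Ratios are log2 with 1 CPM added. A gene was past the fold at 1.5-fold or more with at least 20 CPM in either group. The 14 genes of largest and 14 of smallest ratio with at least 50 CPM were named, along with up to 3 members at each end of 27 gene lists. Some of these genes are counted but not reported here. Intervals are exact Poisson or Clopper-Pearson 95% intervals for counting error only, and limits of 0 counts use 3 counts. No differential test was run, as each condition has 1 library. Phases were called from 43 S and 54 G2 and mitosis genes with scanpy. Components and the 15 nearest neighbours were computed on cells thinned to 5000 UMIs. Of 32285 genes, 32235 had a GENCODE M21 position, and promoters came from RefSeq on GRCm38.p6. The calculation was tested on simulated data. Python 3.11.15 was used with scanpy 1.11.5 and anndata 0.12.19 for phases and variable genes, and scikit-learn 1.9.0 for nearest neighbours. Biopython 1.88 served for alignments, scipy 1.17.1 for intervals, numpy 2.4.6 for components and tables, pandas 2.3.3 for tables, and matplotlib 3.10.9 for plots. The alternatives were other minimums, folds, scalings and matchings, thinned cells, G1 cells, and cells without muscle or adipocyte markers.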

Additional observations from a re-analysis of the deposited data

Results flagged for a closer look

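H19 and Cdkn1a, among 295 genes examined in all 4 libraries, were past the fold in opposite directions in both DMSO and both 5-Aza libraries. The log2 ratio of H19 was 2.36 in H3WT DMSO and 3.32 in H3R26C DMSO, but −1.59 in H3WT 5-Aza and −2.97 in H3R26C 5-Aza. In the H3R26C 5-Aza library H19 was at 149 CPM in Ly6a-high and 1173 CPM in Ly6a-negative cells. Cdkn1a, the p21 inhibitor of the cell cycle, had log2 ratios of 0.89 and 1.55 in the DMSO libraries (272 and 146 CPM in H3WT, 252 and 85.4 CPM in H3R26C) and of −1.05 and −2.11 in the 5-Aza libraries (317 and 658 CPM, 219 and 948 CPM). With 1 library per condition this difference was not tested.

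Muscle-marked cells moved with these values. They made up 10.8% and 24.4% of the matched Ly6a-negative cells of H3WT 5-Aza and H3R26C 5-Aza, and 0% in the DMSO libraries. Without them the log2 ratios of H19 were 0.73 and 0.0011 and those of Cdkn1a 0.56 and −0.14, so neither gene was past the fold in the opposite direction.

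The 2529 H3WT DMSO barcodes that the cell filter left out, with a median of 798 UMIs, also held Ly6a, 1280 UMIs in all or 420 CPM, against 578 CPM in the kept cells. Of these barcodes 4 had 20 or more Ly6a UMIs and 1944 had 0.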

How the results depend on the processing

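In H3WT DMSO, all 28 named genes kept a ratio of at least 1.5-fold in the same direction in each of 560 values from the 20 alternatives that can alter a ratio, with the log2 ratio of Penk ranging from −4.35 to −1.67. These genes were chosen for extreme ratios in this same library, and Sfrp1, the least different, was at −1.84. As the alternatives reuse these cells, keeping a 1.5-fold ratio was largely set in advance and is a description. The 330 higher and 262 lower genes became 185 and 149 with a minimum of 50 CPM, 1141 and 708 with none, and 117 and 105 at a fold of 2. Scaling by the median ratio gave 286 and 306, with 48.3% of the calls higher. In H3R26C 5-Aza, the 45 lower genes past the fold became 81 with every cell thinned to 5000 UMIs. The share of all genes that were lower there was 12% as reported and 21.6% in thinned cells. Of the other counts 63 were within 1.5 times the reported count. Leaving out muscle-marked or adipocyte-marked cells was chosen after seeing the data. No paired analysis was possible because the libraries, 1 for each condition, carry no replicate numbers. Cultures cannot be told apart from conditions, and genes under 20 CPM in both groups were left out of all counts and medians.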

Other observations

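In other stress and metabolic lists few genes were past the fold in H3WT DMSO. Of 15 p53 target and cell cycle inhibitor genes, Cdkn1a and Ccng1 (99.6 and 57.4 CPM in Ly6a-high and Ly6a-negative cells) were higher, and the DNA damage genes Gadd45b (18.9 and 56.7 CPM) and Gadd45a (16.6 and 33.8 CPM) were lower. Of 18 glycolysis and hypoxia genes, Ndrg1 was higher (222 and 117 CPM) and Car9 lower, with a median log2 ratio of 0.14. Of 21 unfolded protein and amino acid stress genes, Psat1, an enzyme of serine synthesis, was higher (45.6 and 14.98 CPM) and Chac1 lower (20.4 and 34.7 CPM). Of 15 oxidative stress genes, the metallothionein Mt2 was higher (109 and 51.1 CPM) and 0 were lower. Gadd45b, Gadd45a and Car9 reached 20 CPM only in Ly6a-negative cells and Psat1 only in Ly6a-high cells. Their directions were fixed by that minimum.

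Of the differentiation markers at 20 CPM or more, 3 of 5 adipocyte, 1 of 2 chondrocyte, 0 of 1 osteoblast and 0 of 1 skeletal muscle genes were lower in Ly6a-high cells and 0 higher, where 3.99% of all genes were lower. Through Ly6a-negative cells alone, 2 of the adipocyte genes and 1 chondrocyte gene reached 20 CPM, so their direction was fixed by that minimum. Pparg, the master regulator of adipogenesis, was at 20.2 and 38.1 CPM and the fatty acid binding protein gene Fabp4 at 10.6 and 22.0 CPM. Spp1, the gene of osteopontin, was at 159 and 337 CPM. Runx2, the early osteoblast factor, was within the fold at 43.0 and 52.6 CPM, with Sp7 and Ibsp at 0. The cartilage collagen Col2a1 was at 14.5 and 23.4 CPM and Sox9, within the fold, at 388 and 405 CPM.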
